A study of Mus musculus with 13 samples.

Results

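The genes described here encode the nuclear part of the mitochondrial respiratory chain, in the nuclei and cytoplasms of mouse oocytes with and without the RNA helicase MTR4. They were chosen by symbol: all rows that start with Ndufa, Ndufb, Ndufc, Ndufs or Ndufv (complex I), Sdh (complex II), Uqcr (complex III), Cox4 to Cox8 (complex IV) or Atp5 (complex V), without the Ndufaf genes and without symbols that hold -ps. That gave 88 of the 23235 genes in the table: 38 for complex I, 6 for complex II, 8 for complex III, 19 for complex IV and 17 for complex V. The prefixes also take in 5 genes that do not encode subunits. Sdhaf1 and Sdhaf2 encode assembly factors of complex II, Cox4nb is an older symbol of Emc8, a neighbour of Cox4i1 that encodes a membrane protein of the endoplasmic reticulum, and Atp5s and Atp5sl encode proteins linked to assembly. Cyc1, a catalytic subunit of complex III, carries a symbol outside the rule and is given with the other mitochondrial genes. Ndufa4, now counted as a subunit of complex IV, and its isoform Ndufa4l2 stand with complex I here by symbol.

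Complexes I to IV pass electrons from NADH and succinate to oxygen and, except for complex II, pump protons across the inner mitochondrial membrane; complex V, the ATP synthase, uses the proton gradient to make ATP. Their subunits come from the nuclear and the mitochondrial genome and are built in fixed proportions. Growing oocytes make a very large number of mitochondria and rely on oxidation of pyruvate. MTR4 (gene Skiv2l2 in this table) unwinds nuclear RNA for the exosome, the main RNA-degrading complex of the nucleus.

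The labels list 13 libraries of polyadenylated RNA, each from 10 nuclei or 10 cytoplasms separated by micromanipulation: WT nuclei and cytoplasms at day 14 (2 libraries each), WT nuclei at day 21 (3) and WT cytoplasms at day 21 (2), and MTR4-null nuclei and cytoplasms at day 21 (2 each). The table holds 4 columns, 1 for each genotype and compartment, and no value of a single library, so that no spread between replicates, p-value or standard deviation could be given. The WT columns name no day, so that genotype and age cannot be told apart. The allele, the driver of the deletion and the strain are not given in the sources used here. Column totals lay between 594034 (WT nucleus) and 6637350 (WT cytoplasm), and the read depth behind each value is unknown. All 15 oocyte markers, such as Zp3 and Gdf9, were above 0 in each column. The 16 granulosa cell markers together made up 0.00320% and 0.00190% of the WT and null nuclear totals and 0.00740% and 0.00999% of the WT and null cytoplasmic totals. Of these, 2 were listed at 0 in WT nuclei and 4 in null nuclei, Foxl2 and Inha among the latter, and 0 in either cytoplasm. Against WT, and with the median gene as reference, 5 of the 15 kept granulosa markers passed 2-fold upward in null cytoplasm and 1 downward, with a median log2 difference of 0.51. These were 33.3% and 6.67% of the markers, against 24.2% and 18.6% of all kept genes, whose median was 0.06. Inha had 253 in WT and 86.8 in null cytoplasm, and Foxl2, which was not kept, had 0.117 in WT and 7.10 in null cytoplasm. Of the 4 blood cell markers 3 and 2 were listed at 0 in WT and null nuclei and 1 and 2 in WT and null cytoplasm. The part of somatic cells in the differences given here was not tested. In such pools less RNA per oocyte and fewer intact oocytes cannot be told apart. Skiv2l2 itself was lower in both null columns, with values of 13.3 and 3.54 in WT and null nuclei and 187 and 4.36 in WT and null cytoplasm.

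Respiratory chain genes stood among the most abundant polyadenylated RNAs of all 4 columns. Of the 88 genes, 86 had values of 1 or more in 2 or more columns and were kept; Cox7b2 and Cox8b were listed at 0 in every column. The median of the 86 kept genes was 124 and 207 in WT and null nuclei and 2035 and 817 in WT and null cytoplasm. These values are FPKM by the table's name, per length, so that levels of genes can be set side by side within a column, but the 4 columns are not on 1 common scale. Ranks do not rest on that scale: the median member stood at percentile 94.3, 93.8, 95.6 and 95.3 of the 14240 kept genes, in the same order. Of the 86, 64 lay in the top 10% of genes in WT cytoplasm and 57 in null cytoplasm, and 60 and 58 did so in WT and null nuclei. The 88 genes summed to 2.55% and 2.2% of the WT and null nuclear totals and to 3.62% and 3.53% of the WT and null cytoplasmic totals. Genes of small RNAs (snoRNAs, microRNAs and the like, by symbol) held 21.2% and 17.9% of the 2 nuclear totals, and 2.65% and 6.85% of the cytoplasmic ones; without them the shares were 3.24%, 2.68%, 3.72% and 3.79%.

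**Figure D1:**
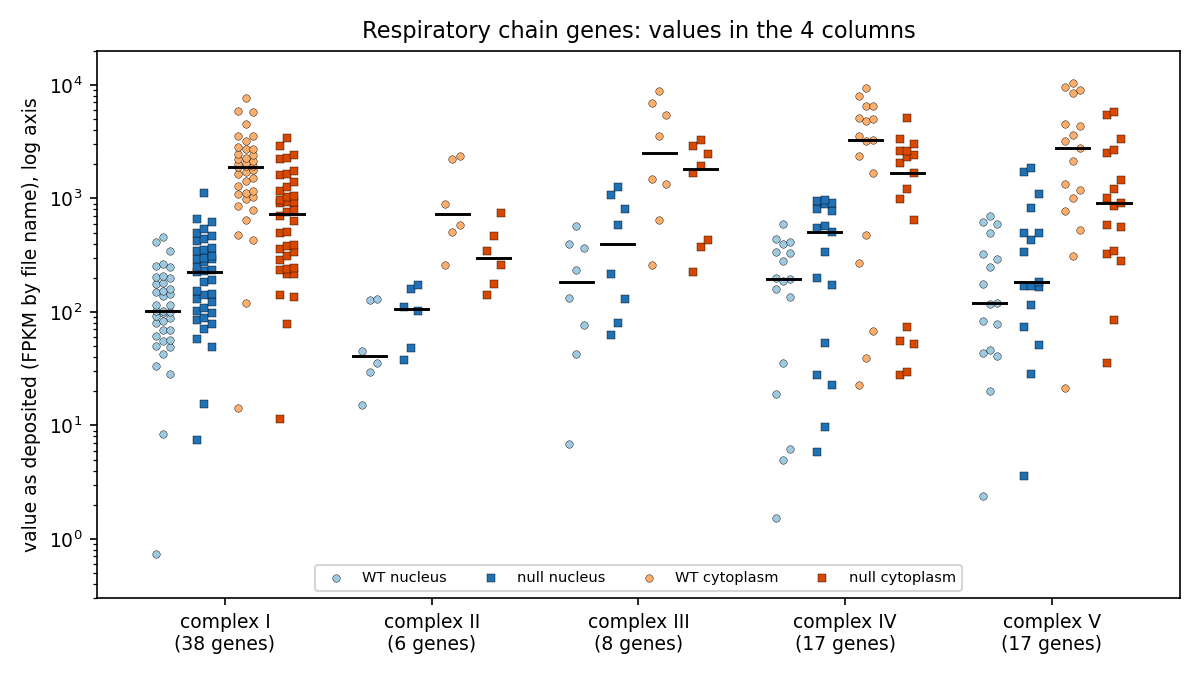
Values of the 86 kept respiratory chain genes in the 4 columns, as deposited, on a log axis; each point is 1 gene, a black bar is the median of a complex in a column, and columns are not on a common scale. Medians of complexes III and IV lie above that of complex II in every column, and single low points below the main cloud, such as Ndufa4l2 at 0.732 in the WT nucleus, include isoforms known from other tissues.

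Within complexes the levels spread widely although the proteins are built in fixed proportions. The highest value in 3 of the 4 columns was that of Atp5e, the small epsilon subunit of the ATP synthase, with values of 698 and 1838 in WT and null nuclei and 10324 and 5389 in WT and null cytoplasm. Cox4i1, the regulatory subunit of cytochrome c oxidase, led complex IV in WT cytoplasm, with values of 599.6 and 961 in WT and null nuclei and 9341 and 3326 in WT and null cytoplasm. In that column Uqcrq, a small membrane subunit, led complex III at 8798 and Ndufa2, a subunit near the NADH-oxidising end, led complex I at 7716. Ndufs1, the largest subunit of complex I and a carrier of iron-sulfur clusters, lay well below Ndufa2, with values of 8.35 and 15.6 in WT and null nuclei and 121 and 78.2 in WT and null cytoplasm. Complex II had the lowest median in every column, 735 in WT cytoplasm against 3238 for complex IV. Of the summed value of all members, complex I held 34.3%, 32.6%, 34.1% and 33.2% in WT nuclei, null nuclei, WT cytoplasm and null cytoplasm, and complex V 26.3%, 26.5%, 26.3% and 25.7%. For each of the 5 complexes the share differed by less than 2 percentage points between columns.

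Several subunits of cytochrome c oxidase have isoforms that are known from single tissues, and in the oocyte columns the common form was the higher one for most of them. Cox4i2, the lung form, made up 0.419% of the sum of Cox4i1 and Cox4i2 in the WT cytoplasm, and Cox7a1, the heart and muscle form, 0.640% of the sum of Cox7a2 and Cox7a1. Cox6a2, another heart and muscle form, took 3.96% beside Cox6a1. Cox6b2, known as the testis form, was the exception: it had values of 187 and 502 in WT and null nuclei and 3238 and 1685 in WT and null cytoplasm. The common form Cox6b1 had values of 198 and 572 in WT and null nuclei and 3206 and 2031 in WT and null cytoplasm. The share of Cox6b2 in the pair was 48.5% and 46.8% in WT and null nuclei and 50.3% and 45.3% in WT and null cytoplasm, so that both forms were present at close to equal values in all 4 columns. Cox8c, another testis form, stayed low at 1.31% of the sum with Cox8a in the WT cytoplasm. No 50-base stretch of the Cox6b1 or Cox6b2 transcript was found in transcripts of another gene (GENCODE M21).

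The main question was whether respiratory chain RNAs differ between MTR4-null and WT oocytes. To set columns of unequal scale side by side, each was scaled by the median of its ratios to the geometric mean of the columns, 1 was added and log2 differences were taken; these are called relative, since the median gene is their reference. The words higher and lower, in counts, mean a difference of 2-fold or more on this scale. In the nucleus most members lay close to the median gene: 4 of 86 were higher in null (25.8% of all kept genes were), 3 were lower (16.2% of all) and 79 lay between. Their median relative log2 difference was -0.18, against 0.06 over all kept genes. In the cytoplasm 5 members were higher in null (24.2% of all kept genes) and 17 were lower (18.6% of all), with a median of -0.36 against 0.06 over all kept genes, and 62 of the 86 lay below 0. Under quantile normalization 9 were lower and 4 higher in the cytoplasm and the median was -0.053, against -0.076 over all kept genes, so that on that scale the members did not lie below the genes at large. The members had interquartile ranges of 0.75 (nucleus) and 0.87 (cytoplasm) log2 units, against 1.70 in both for all kept genes. Genes with a WT cytoplasm value of at least 500 had 0.89 and 1.05, and cytoplasmic ribosomal protein genes 0.55 and 0.89.

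The counts rest on the scale. With values as deposited, 40 members passed 2-fold upward in null nuclei (46.3% of all kept genes) and 0 downward (3.69%), while in null cytoplasm 1 passed upward (14.9%) and 59 downward (43.7%). The median over all kept genes then moved to 0.91 for nuclei and -0.79 for cytoplasm. Members are abundant, and abundant genes as a whole lay lower in null. Of the 2278 kept genes with a WT cytoplasm value of at least 500, 2.72% were higher and 24.8% lower in null nuclei, and 2.06% higher and 37.4% lower in null cytoplasm, with medians of -0.53 and -0.75. The 73 members at that level had medians of -0.17 and -0.51, with 0 higher and 2 lower in the nucleus and 2 higher and 15 lower in the cytoplasm. This level was chosen on the WT cytoplasm column, which the cytoplasmic difference also uses. Of the 86 members, 0 were higher in one compartment and lower in the other, and such genes were rare at large (137 of 14240 kept genes).

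**Figure D2:**
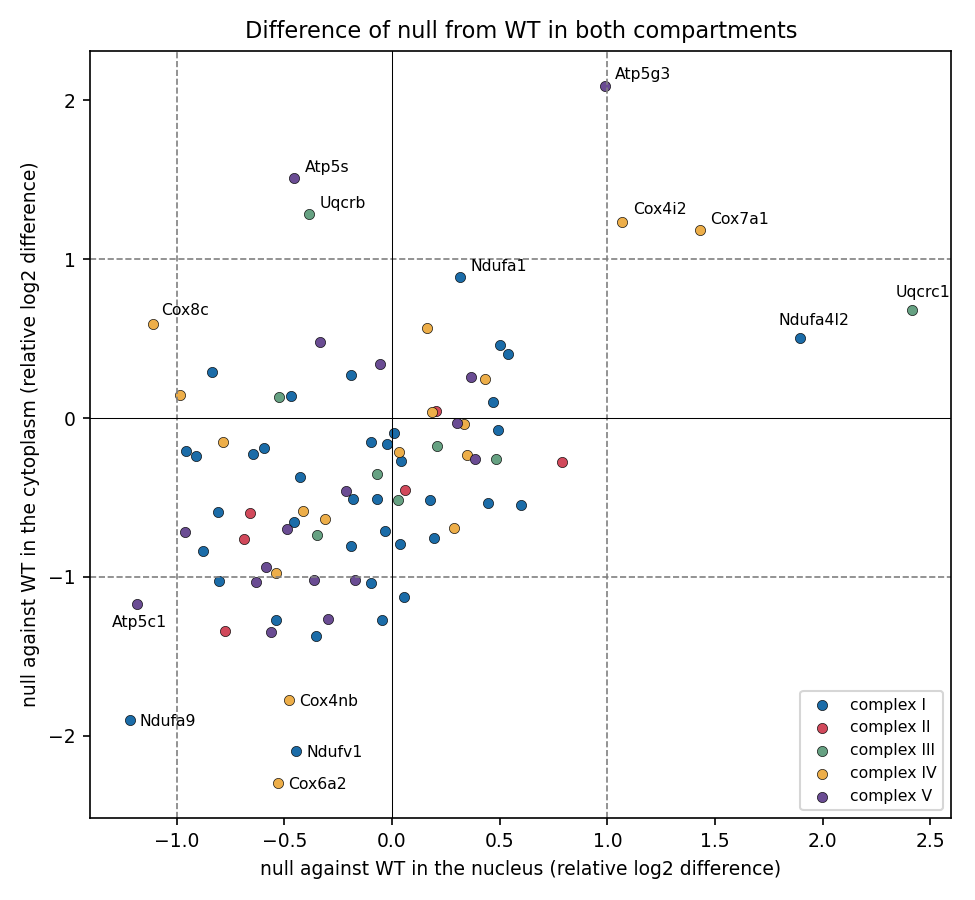
Relative log2 difference of null from WT in the nucleus (x axis) and in the cytoplasm (y axis) for the 86 kept genes, 1 point a gene, coloured by complex, with dashed lines at 2-fold. Most points lie between the dashed lines on the x axis and below 0 on the y axis; Cox4i2 and Cox7a1 lie past 2-fold higher on both axes and Ndufa9 and Atp5c1 past 2-fold lower on both.

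In both compartments 4 members passed 2-fold in the same direction. Cox4i2 had values of 4.90 and 22.6 in WT and null nuclei and 39.3 and 51.8 in WT and null cytoplasm, and Cox7a1 had values of 1.52 and 9.75 in WT and null nuclei and 22.7 and 29.8 in WT and null cytoplasm; both are isoforms at low level, and both were higher in null (relative log2 1.07 and 1.43 in the nucleus, 1.23 and 1.18 in the cytoplasm). Ndufa9, a subunit of complex I near the quinone site, was lower in null, with values of 153 and 140.2 in WT and null nuclei and 2740.2 and 389.8 in WT and null cytoplasm (relative -1.22 and -1.90). So was Atp5c1, the gamma subunit that turns inside the head of the ATP synthase, with values of 78.5 and 73.3 in WT and null nuclei and 1183 and 279 in WT and null cytoplasm (relative -1.19 and -1.17). Members called higher in both were 2.33% of the 86, against 16.4% of all kept genes, and those lower in both were 2.33% against 8.42%. Across the 86 genes the 2 differences, which share no column, had a Spearman correlation of 0.43, and across all kept genes 0.67; genes are not independent replicates. Under quantile normalization each of the 4 lost the call in at least 1 compartment: Cox4i2 had 0.93 (nucleus) and 0.91 (cytoplasm), Cox7a1 0.74 in the cytoplasm, Ndufa9 -0.96 in the nucleus and Atp5c1 -0.93 (nucleus) and -0.855 (cytoplasm). As deposited, Ndufa9 (-0.13) and Atp5c1 (-0.10) lay within 2-fold in the nucleus, and Cox4i2 (0.39) and Cox7a1 (0.38) in the cytoplasm.

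Complex I, which oxidises NADH, had 1 gene higher and 1 lower of 38 in null nuclei, and 0 higher and 8 lower in null cytoplasm, with medians of -0.10 and -0.51. The 8 were 21.1% of the complex, near the 18.6% of all kept genes and below the 37.4% of those at 500 or more. The lowest in the cytoplasm was Ndufv1, the subunit that binds NADH and the flavin, with values of 56.4 and 88.3 in WT and null nuclei and 1092 and 135 in WT and null cytoplasm (relative -0.45 and -2.10). Its partner in the NADH-binding module, Ndufv2, had values of 49.9 and 77.5 in WT and null nuclei and 851 and 288 in WT and null cytoplasm. The ratio of Ndufv1 to Ndufv2 does not rest on the scale of a column: it was 1.13 and 1.14 in WT and null nuclei and 1.28 and 0.468 in WT and null cytoplasm. Thus the null cytoplasm stood apart from the other 3 columns, with a ratio 2.74-fold below that of WT cytoplasm.

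Other subunits of complex I that carry or hold its redox centres were lower in part. Ndufs8, an iron-sulfur subunit, had 648 in WT and 142 in null cytoplasm (relative -1.27), and Ndufs3, a subunit of the quinone module, had 1289.6 in WT and 337 in null cytoplasm (relative -1.03). Ndufs7, an iron-sulfur subunit of the quinone module, stayed within 2-fold, at relative differences of -0.53 in the cytoplasm and 0.45 in the nucleus, and so did Ndufs1 at -0.19 (nucleus) and 0.27 (cytoplasm). Of the supernumerary subunits, those that mammals have beyond the catalytic core, Ndufs5 (1520.4 in WT and 313 in null cytoplasm), Ndufb10 (1111 in WT and 245 in null cytoplasm), Ndufa11 (986 in WT and 239.6 in null cytoplasm) and Ndufs6 (1936 in WT and 503 in null cytoplasm) were also lower. Of the 8 calls in complex I, those of Ndufs3, Ndufs6, Ndufa11 and Ndufb10 were lost under quantile normalization, at -0.69, -0.72, -0.83 and -0.97. At the other end Ndufa1, a small membrane subunit, had values of 159.8 and 425 in WT and null nuclei and 2245 and 2219 in WT and null cytoplasm and a relative difference of 0.89 in the cytoplasm, the highest of complex I and short of 2-fold. Ndufa4l2, a low-oxygen isoform of Ndufa4 that is placed here by symbol only, was the 1 gene higher in the nucleus. It had 0.732 in WT and 7.41 in null nuclei (relative 1.89), and at so low a level in WT the added 1 weighs on the difference.

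Complex II, succinate dehydrogenase, takes electrons from the citrate cycle and has only nuclear-encoded subunits, the 4 described here. Its flavoprotein Sdha had values of 35.6 and 48.0 in WT and null nuclei and 502 and 177 in WT and null cytoplasm, and the iron-sulfur subunit Sdhb had values of 45.3 and 101 in WT and null nuclei and 886 and 345 in WT and null cytoplasm. The membrane anchors were the more abundant: Sdhc had values of 128 and 159 in WT and null nuclei and 2209.6 and 464 in WT and null cytoplasm, and Sdhd had values of 131 and 174 in WT and null nuclei and 2343 and 737 in WT and null cytoplasm. Sdhc was the 1 member past 2-fold, lower in the null cytoplasm (relative -1.34), while Sdha, Sdhb and Sdhd had -0.60, -0.45 and -0.76. In the nucleus all 4 subunits lay within 2-fold, between -0.78 for Sdhc and 0.06 for Sdhb. The assembly factor Sdhaf1 had values of 29.6 and 109 in WT and null nuclei and 584 and 257 in WT and null cytoplasm and shares 69.0% of its transcript with transcripts of 1 other gene.

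Complex III, which passes electrons from ubiquinol to cytochrome c, held the member with the largest difference in the nucleus. Uqcrc1, one of the large core proteins on the matrix side, had values of 6.82 and 80.1 in WT and null nuclei and 259 and 223 in WT and null cytoplasm. It was higher in the null nucleus by 2.42 log2 units relative to the median gene, and it moved from percentile 55.6 to 85.5 of the kept genes. In the cytoplasm it stood at 0.68. Its partner Uqcrc2, the other core protein, had values of 76.9 and 129 in WT and null nuclei and 1352 and 432 in WT and null cytoplasm. The ratio of Uqcrc1 to Uqcrc2 was 0.0886 in WT and 0.622 in null nuclei, a 7.02-fold difference, and 0.191 in WT and 0.515 in null cytoplasm, a 2.69-fold difference. So the WT columns, and the WT nucleus most, held little Uqcrc1 beside Uqcrc2. No 50-base stretch of the Uqcrc1 transcript lies in another gene's transcripts, while Uqcrc2 shares 24.8%.

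Uqcrb, a small subunit that lies beside the quinone site, was the 1 member of complex III higher in the null cytoplasm, with values of 132 and 215 in WT and null nuclei and 1496 and 1943 in WT and null cytoplasm (relative -0.39 and 1.28). Its value per Uqcrq was 0.229 and 0.171 in WT and null nuclei and 0.170 and 0.593 in WT and null cytoplasm, so that again the null cytoplasm stood apart. Uqcrb shares 43.4% of its transcript with transcripts of 5 other genes, 4 of them pseudogenes, so that reads can be split between them; as deposited its cytoplasmic difference was 0.38. The Rieske iron-sulfur protein Uqcrfs1 had values of 42.8 and 63.2 in WT and null nuclei and 641 and 376 in WT and null cytoplasm and lay within 2-fold in both compartments. Of the 8 genes, 0 were lower in either compartment, against 16.2% (nucleus) and 18.6% (cytoplasm) of all kept genes. With only 8 genes this count says little about the complex.

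Complex IV, cytochrome c oxidase, had medians near 0: 0.03 in the nucleus and -0.15 in the cytoplasm over 17 kept genes, with 2 higher and 1 lower in the nucleus and 2 higher and 2 lower in the cytoplasm. In the nucleus these were 11.8% higher and 5.88% lower, against 25.8% and 16.2% of all kept genes. In the cytoplasm they were 11.8% each way, against 24.2% and 18.6%. The 3 widely expressed subunits that sit around the mitochondrial core of the complex, Cox4i1, Cox5a and Cox5b, lay within 2-fold in both compartments, with relative differences of -0.41, -0.79 and 0.19 in the nucleus and -0.58, -0.15 and 0.04 in the cytoplasm. Cox5a had values of 440.4 and 544 in WT and null nuclei and 5001 and 2398 in WT and null cytoplasm, and Cox5b had values of 331 and 804 in WT and null nuclei and 4789 and 2620.1 in WT and null cytoplasm. The genes past 2-fold were low isoforms or no subunit. Cox6a2 had values of 19.0 and 27.8 in WT and null nuclei and 268 and 27.6 in WT and null cytoplasm, and was the lowest member of all in the cytoplasm (relative -2.30), so that its share beside Cox6a1 was 3.96% in WT and 0.915% in null cytoplasm. In the nuclei that share was 4.35% in WT and 2.97% in null. Cox4nb, the gene of the membrane protein named above, had values of 35.2 and 53.7 in WT and null nuclei and 480.2 and 73.5 in WT and null cytoplasm (relative -1.78 in the cytoplasm), in contrast to its neighbour Cox4i1. Cox8c was lower in the null nucleus (6.18 in WT and 5.79 in null nuclei, relative -1.11) and within 2-fold in the cytoplasm (relative 0.59); as deposited its nuclear difference was -0.080.

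Complex V, the ATP synthase, had the lowest median in the cytoplasm, -0.70, with 6 of 17 genes lower and 2 higher; in the nucleus its median was -0.33, with 1 lower and 0 higher. The 6 were 35.3% of the complex, against 18.6% of all kept genes and 37.4% of those at 500 or more, whose median was -0.75, so that the complex lay close to other abundant genes. Subunits of the catalytic head were among the lower ones. Its nucleotide-binding alpha and beta subunits are encoded by Atp5a1 and Atp5b. Atp5a1 had values of 119.8 and 165 in WT and null nuclei and 2136 and 556 in WT and null cytoplasm, and Atp5b had values of 116 and 168 in WT and null nuclei and 2755 and 578 in WT and null cytoplasm (relative -1.03 and -1.34 in the cytoplasm, -0.63 and -0.56 in the nucleus). Their ratio lay between 0.775 and 1.03, at 1.03 and 0.981 in WT and null nuclei and 0.775 and 0.962 in WT and null cytoplasm. Atp5o, which joins the head to the stator, and Atp5h, a stator subunit, had relative differences of -1.02 and -1.02 in the cytoplasm; they share 50.3% and 50.5% of their transcripts with other genes. Under quantile normalization Atp5a1, Atp5c1, Atp5o and Atp5h lay within 2-fold, at -0.72, -0.855, -0.77 and -0.80. Atp5d, a subunit of the central stalk, and Atp5e, which lies next to it, stayed close to the median gene in the cytoplasm (-0.26 and -0.03), and Atp5k, a small membrane subunit, lay at 0.26. Atp5s was higher in the null cytoplasm (21.1 in WT and 35.5 in null cytoplasm, relative 1.51, and 0.72 as deposited) and within 2-fold in the nucleus (relative -0.45, but -1.055 under quantile normalization).

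The c subunit of the ATP synthase, which forms the proton-driven ring in the membrane, is made from 3 genes, Atp5g1, Atp5g2 and Atp5g3, whose products differ in the mitochondrial targeting part and give the same mature protein. The longest stretch before the stop codon over which the 3 genes encode the same residues, taken from GENCODE M21 transcripts (GRCm38), is shown because the RNAs that the values tell apart differ there only in silent bases; each runs 5′ to 3′ as in the RNA, and capitals mark the positions at which the 3 sequences are not all the same.
Atp5g1: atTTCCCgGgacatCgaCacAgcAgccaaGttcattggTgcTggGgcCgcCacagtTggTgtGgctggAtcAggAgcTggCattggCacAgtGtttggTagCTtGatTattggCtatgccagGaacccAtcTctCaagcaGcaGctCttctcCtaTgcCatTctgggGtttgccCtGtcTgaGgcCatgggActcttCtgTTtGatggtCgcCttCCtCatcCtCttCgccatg
Atp5g2: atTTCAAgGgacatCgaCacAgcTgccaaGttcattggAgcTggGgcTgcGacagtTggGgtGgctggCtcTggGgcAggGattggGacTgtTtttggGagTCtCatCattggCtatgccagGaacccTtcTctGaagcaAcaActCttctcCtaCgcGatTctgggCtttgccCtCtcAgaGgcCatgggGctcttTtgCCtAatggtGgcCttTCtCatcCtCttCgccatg
Atp5g3: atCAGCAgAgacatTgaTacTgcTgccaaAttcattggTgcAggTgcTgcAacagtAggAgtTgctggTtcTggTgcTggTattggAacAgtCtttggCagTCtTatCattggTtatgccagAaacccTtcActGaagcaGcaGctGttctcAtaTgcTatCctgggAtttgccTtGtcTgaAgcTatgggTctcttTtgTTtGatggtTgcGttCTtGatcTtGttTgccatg
Of 234 positions 63 differ among the 3 genes and 0 of the 78 residues do. Atp5g1 and Atp5g3 differ at 50 bases and share no identical run longer than 11 bases, and Atp5g2 and Atp5g3 differ at 53, with no identical run longer than 8. No 50-base stretch of the whole Atp5g3 transcript was found in another gene's transcripts. The Atp5g2 transcript used here (441 bases) shares 100% with transcripts of 2 pseudogenes, so that its value is uncertain. The Atp5g1 transcript used here has 4715 bases, 408 of them coding. It shares 11.6% with transcripts of 366 other genes, 6 of them pseudogenes, and where these stretches lie in it was not examined.

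The 3 genes differed in how they lay between null and WT. Atp5g3 had values of 43.3 and 184 in WT and null nuclei and 530.3 and 1213 in WT and null cytoplasm. It was the highest member in the cytoplasm (relative 2.09), the only one at least 2-fold higher there as deposited, and just short of 2-fold in the nucleus (relative 0.99, and 1.22 under quantile normalization). Atp5g1 had values of 246 and 428 in WT and null nuclei and 4519 and 1003 in WT and null cytoplasm, and was lower in the null cytoplasm (relative -1.26, and -0.30 in the nucleus). Atp5g2 had values of 323 and 492 in WT and null nuclei and 4375 and 1440.3 in WT and null cytoplasm and stayed within 2-fold (relative -0.49 and -0.70). Shares of the summed value do not rest on the scale of a column. Atp5g3 made up 7.07% of the 3 genes in WT and 16.7% in null nuclei, and 5.63% in WT and 33.2% in null cytoplasm. Atp5g1 made up 40.2% and 38.8% in WT and null nuclei and 47.9% and 27.4% in WT and null cytoplasm. In both compartments the null column held the larger share of Atp5g3.

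**Figure D3:**
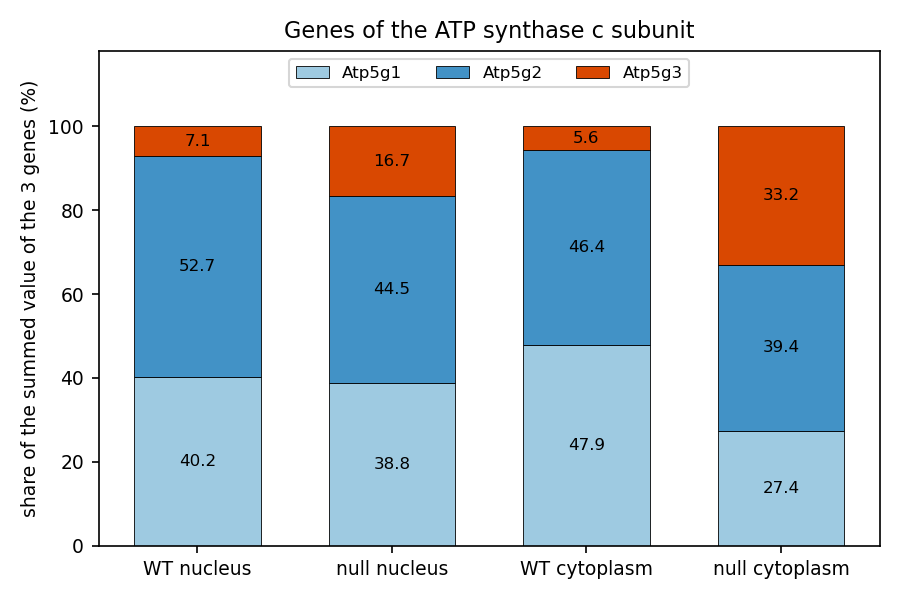
Share of each gene in the summed value of Atp5g1, Atp5g2 and Atp5g3 in each of the 4 columns, in percent; each bar is 1 column with no replicate. Atp5g3 takes 7.07% and 5.63% in the WT nucleus and cytoplasm and 16.7% and 33.2% in the null ones.

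The promoters of the same 3 genes are shown because the 3 genes encode 1 protein and their values differ between genotypes: the 250 bases before the RefSeq start (build GRCm38.p6, all on the minus strand), with matches to the NRF-1 motif (GCGCA, any base, then GCGC), the ETS motif CCGGAAG and the CCAAT box in capitals, searched on both strands (adjoining or overlapping matches merge).
Atp5g1 (chr11:96075632-96075881): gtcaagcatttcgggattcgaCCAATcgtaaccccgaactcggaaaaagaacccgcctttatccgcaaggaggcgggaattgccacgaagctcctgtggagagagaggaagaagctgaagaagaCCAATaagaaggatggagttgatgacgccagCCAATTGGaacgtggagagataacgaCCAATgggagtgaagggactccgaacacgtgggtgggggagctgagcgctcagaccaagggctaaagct
Atp5g2 (chr15:102671048-102671297): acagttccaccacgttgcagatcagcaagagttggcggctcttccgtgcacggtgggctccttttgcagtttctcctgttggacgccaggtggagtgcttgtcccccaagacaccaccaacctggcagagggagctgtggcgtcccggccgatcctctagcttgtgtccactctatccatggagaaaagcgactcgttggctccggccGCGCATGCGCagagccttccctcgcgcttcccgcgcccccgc
Atp5g3 (chr2:73911327-73911576): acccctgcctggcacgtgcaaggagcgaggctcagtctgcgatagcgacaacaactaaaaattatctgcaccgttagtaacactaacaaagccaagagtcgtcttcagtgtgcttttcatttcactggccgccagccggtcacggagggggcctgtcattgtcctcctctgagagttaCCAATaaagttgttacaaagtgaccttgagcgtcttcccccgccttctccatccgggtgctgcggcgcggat
Atp5g1 holds 5 CCAAT matches, Atp5g3 holds 1, and Atp5g2 holds 1 NRF-1 match and no CCAAT. NRF-1 and the ETS factor GABP are known regulators of respiratory chain genes. RefSeq promoters were found for 72 of the 88 genes. The NRF-1 motif was in 12 of them (16.7%), against 3.86% of 27025 promoters in the table and 5.30% of 17491 protein-coding ones. The ETS motif was also in 12 (16.7%, against 7.05% and 9.12%), and CCAAT in 32 (44.4%, against 34.5% and 36.3%). A match is a run of letters and not a measured site.

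Nucleus and cytoplasm were compared within each genotype. In WT the members lay evenly a little below the median gene in the nucleus: 0 of 86 were at least 2-fold higher there (9.73% of all kept genes) and 1 was lower (7.46%), Uqcrc1 at a relative log2 difference of -1.57. Their median was -0.38, against -0.10 over all kept genes and -0.37 over those at 500 or more in the WT cytoplasm, and 75 of 86 lay below 0. Their interquartile range was 0.31 log2 units, against 0.91 for all kept genes and 0.51 for those at 500 or more. The next lowest were Atp5b (-0.93), Cox7c (-0.91), a small subunit of complex IV, Ndufb9 (-0.80) and Atp5f1 (-0.79), the b subunit of the stator. The highest were Cox4i2 (0.59), Atp5s (0.44), Ndufb3 (0.33), Ndufc2 (0.25) and Cox7b (0.24). As deposited, all 86 kept members passed 2-fold downward in the nucleus (91.2% of all kept genes) and 0 upward (1.74%).

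In the null oocytes the members spread more between the compartments. Higher in the nucleus were 3 of 86 (12.4% of all kept genes), Cox6a2 (1.59), Cox4nb (1.16) and Ndufv1 (1.02), which are also 3 of the 4 lowest in the null cytoplasm against WT, a comparison that shares the null cytoplasm column. Lower in the nucleus were 6 (8.83% of all): Uqcrb (-1.53), Atp5s (-1.52), Cox8c (-1.52), Atp5g3 (-1.08), Ndufa4 (-1.04) and Atp5f1 (-1.03). Ndufa4, now counted as a subunit of cytochrome c oxidase, had values of 346 and 533 in WT and null nuclei and 5802 and 3406 in WT and null cytoplasm. The median of the members was -0.09, and their interquartile range 0.55 log2 units, against 0.31 in WT. Genes at 500 or more in the WT cytoplasm also spread more, with ranges of 0.74 in null and 0.51 in WT. As deposited 80 of 86 passed 2-fold downward (71.9% of all kept genes) and 0 upward (2.91%). With 5 added in place of 1, Ndufv1 and Atp5f1 lay just within 2-fold.

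Set between genotypes, the nucleus against cytoplasm value lay higher in null oocytes for most members: 61 of 86 lay above 0. Their median was 0.30, against 0.07 over all kept genes and 0.27 over the 2278 at 500 or more in the WT cytoplasm. The median was 0.38 for mitochondrial ribosomal protein genes, 0.23 for cytoplasmic ones and 0.48 for proteasome genes, so that the members lay close to like genes. At least 2-fold higher were 10 members (16.9% of all kept genes), led by Cox6a2 (1.77), Uqcrc1 (1.73), Ndufv1 (1.65), Ndufa4l2 (1.39) and Cox4nb (1.30). At least 2-fold lower were 6 (15.3% of all): Atp5s (-1.96), Cox8c (-1.70), Uqcrb (-1.67), Cox7b (-1.13), Ndufb3 (-1.13) and Atp5g3 (-1.10). Between genotypes Uqcrc1 differed by 2.42 in nuclei and 0.68 in cytoplasm, while Ndufv1 differed by -0.45 and -2.10 and Cox6a2 by -0.53 and -2.30. As deposited 80 passed 2-fold upward (71.7% of all kept genes) and 0 downward (3.32%), and with quantile normalization the counts were 8 upward and 7 downward and the median 0.13. The median of the members lay above 0 on each of these 3 scales, and its size and the counts moved with the scale. Over all kept genes the median was also above 0, at 1.70 as deposited and 0.06 under quantile normalization.

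Short and long members differed in where they lay. Coding length, taken from GENCODE M21 for all 88 genes, ranged from 156 bases (Atp5e) to 2181 bases (Ndufs1). The 21 kept members under 300 coding bases lay at medians of 0.21 (nucleus) and -0.03 (cytoplasm), with 1 of 21 lower and 1 higher in null cytoplasm. The 42 members from 300 to under 600 bases had -0.10 and -0.25, the 12 from 600 to under 900 had -0.50 and -0.83, and the 11 of 900 or more had -0.45 and -0.79. Among the 23 members of 600 bases or more, 9 were at least 2-fold lower in the null cytoplasm and 1 was higher. The 23 include Cox4nb, Atp5s and Atp5sl, which do not encode subunits. Cox4nb was 1 of the 9 lower (-1.78), Atp5s was the 1 higher (1.51) and Atp5sl lay within 2-fold (-0.94). Among genes at 500 or more in WT cytoplasm 162 of 470 from 600 to under 900 bases and 503 of 1075 of 900 or more were lower, a share near that of the members. Across the 86 members the Spearman correlation of coding length with the relative difference was -0.36 (nucleus) and -0.43 (cytoplasm), and with the WT cytoplasm value -0.45. The same held to a smaller extent over 2194 genes with a WT cytoplasm value of at least 500, at -0.19 and -0.24, and not over 13062 kept genes with a coding length, at 0.01 and 0.04. Shorter members were also the more abundant ones; the part of length in the counting of reads was not tested.

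**Figure D4:**
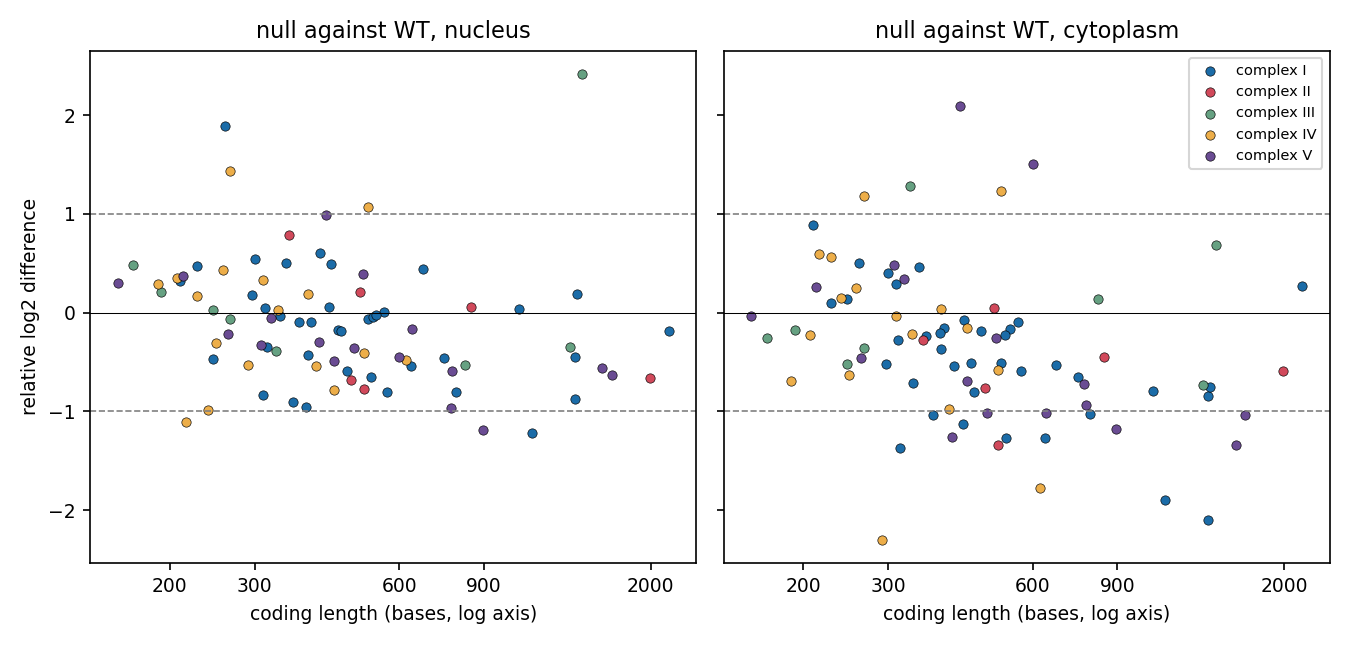
Relative log2 difference of null from WT against coding length (log axis, bases) for the 86 kept genes in the nucleus (left) and the cytoplasm (right), coloured by complex, with dashed lines at 2-fold. In the cytoplasm 19 of the 23 genes of 600 bases or more lie below 0, and the genes under 300 bases scatter around 0.

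By role, a list of 21 main subunits was set against the 60 other kept subunits: 7 of complex I, the 4 of complex II, Uqcrc1, Uqcrc2 and Uqcrfs1 of complex III, Cox4i1, Cox5a and Cox5b of complex IV, which surround its mitochondrial core without being part of it, and Atp5a1, Atp5b, Atp5c1 and Atp5d of complex V. The listed subunits had lower medians than the others, -0.53 against -0.05 in the nucleus and -0.65 against -0.23 in the cytoplasm. In the cytoplasm 7 of the 21 were lower (33.3%) and 0 higher, and 9 of the 60 others were lower (15.0%) and 4 higher. Over all kept genes 18.6% were lower, and over those at 500 or more 37.4%, so that neither share stood above that of abundant genes. The median coding length was 822 bases for the 21 and 338 for the others, so that role and length move together in these genes.

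Other genes of mitochondrial respiration were described from lists. Of 30 assembly factors, which build the complexes and are not part of them, 7 were higher and 4 lower in null nuclei (median 0.26) and 8 higher and 5 lower in null cytoplasm (median -0.20). These shares, 23.3% and 13.3% in nuclei and 26.7% and 16.7% in cytoplasm, were near those of all kept genes. Cox11, a copper chaperone of complex IV, had values of 0.866 and 10.5 in WT and null nuclei and 16.7 and 79.3 in WT and null cytoplasm (relative 2.18 and 2.92). Foxred1, an assembly factor of complex I, had values of 0.343 and 18.1 in WT and null nuclei and 12.0 and 21.5 in WT and null cytoplasm (relative 3.82 and 1.50). Others at the ends of the list were Lyrm7 (2.53 in the nucleus), Atpaf2 (2.79 in the cytoplasm), Ecsit (-1.25 and -1.54), Tmem126b (-1.26 in the nucleus) and Cox18 (-1.60 in the cytoplasm). Of 17 genes of electron carriers, 3 were higher and 3 lower in the nucleus and 2 higher and 4 lower in the cytoplasm, with medians of -0.04 and -0.59; the 4 lower were 23.5%, against 18.6% of all kept genes. Cyc1, cytochrome c1 of complex III, had values of 12.8 and 82.3 in WT and null nuclei and 346 and 206 in WT and null cytoplasm (relative 1.57 and 0.16). It was higher in the null nucleus, as were Uqcrc1 and 25.8% of all kept genes. The other 7 members of complex III lay within 2-fold there, from -0.53 (Uqcrfs1) to 0.48 (Uqcr11). Etfa, which hands electrons from fatty acid oxidation to the chain, had values of 87.5 and 81.1 in WT and null nuclei and 1639.9 and 268 in WT and null cytoplasm (relative -1.20 and -1.70). At the ends of this list were also Pdss2 (-1.59 in the nucleus), Coq6 (-1.69 in the cytoplasm), Coq10a (1.57 in the cytoplasm) and Etfdh (1.33 and 1.59).

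The citrate cycle and pyruvate dehydrogenase genes, which feed the chain, had medians below those of the chain. Of 19 genes 6 were lower and 1 higher in null nuclei, with a median of -0.74, and 8 lower and 1 higher in null cytoplasm, with a median of -0.92. The shares lower were 31.6% and 42.1%, against 16.2% and 18.6% of all kept genes. Of genes at 500 or more in the WT cytoplasm, 24.8% and 37.4% were lower. Not all of the list is at that level: Idh2, Pcx, Ogdh, Dlat, Idh3b and Suclg2 lay below 500 there. Dld, a subunit shared by several dehydrogenase complexes, had values of 54.8 and 28.8 in WT and null nuclei and 968 and 209 in WT and null cytoplasm (relative -2.0 and -1.30), and Fh1, fumarase, had values of 55.0 and 54.7 in WT and null nuclei and 938 and 138 in WT and null cytoplasm (relative -1.09 and -1.84). Dlat had -1.52 and Pcx 0.15 in the nucleus, and Idh2 had -2.13 and Pdhb -0.07 in the cytoplasm. Ogdh was the 1 gene higher, with values of 202 and 2263 in WT and null nuclei and 176 and 2832 in WT and null cytoplasm (relative 2.39 and 4.89). As deposited, its WT nucleus value exceeded its WT cytoplasm value, which no kept respiratory chain gene did, but these columns differ in scale. On the relative scale Ogdh had 3.81 for nucleus against cytoplasm in WT. There 11 of the 86 members lay above 0, the highest being Cox4i2 at 0.59. The 16 kept genes of fatty acid oxidation had 5 higher and 1 lower in the nucleus and 3 higher and 4 lower in the cytoplasm (medians 0.16 and -0.27; 31.2% higher in the nucleus against 25.8% of all kept genes), with Acads (2.01 and 1.53), Cpt1c (2.08 in the nucleus), Eci1 (2.53 in the cytoplasm), Acadl (-3.96 and -1.24), Acadvl (-0.69 in the nucleus) and Hadh (-1.24 in the cytoplasm) at its ends. Acadl was listed at 0 in the null nucleus.

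Genes of mitochondrial gene expression, which copy and translate the mitochondrial genome, included 8 higher and 1 lower of 27 in null nuclei, with a median of 0.27, and 4 higher and 4 lower in null cytoplasm, with a median of 0.10. The 8 higher were 29.6% of the list, near the 25.8% of all kept genes. Gabpa, a subunit of the factor GABP, had values of 0.128 and 5.05 in WT and null nuclei and 8.14 and 30.8 in WT and null cytoplasm (relative 2.70 and 2.40). Nrf1, which encodes NRF-1 and is named because its motif was searched, had values of 23.4 and 46.2 in WT and null nuclei and 627 and 143 in WT and null cytoplasm (relative -0.11 and -1.22). Mtpap, the mitochondrial poly(A) polymerase, was lower in both compartments, with values of 35.4 and 25.5 in WT and null nuclei and 661 and 82.6 in WT and null cytoplasm (relative -1.54 and -2.07). Polg2 (2.88) and Tfb2m (-0.80) stood at the ends in the nucleus, and Mterfd3 (2.66) and Mrrf (-1.36) in the cytoplasm. The subunits encoded by the mitochondrial genome were not analysed here.

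**Figure D5:**
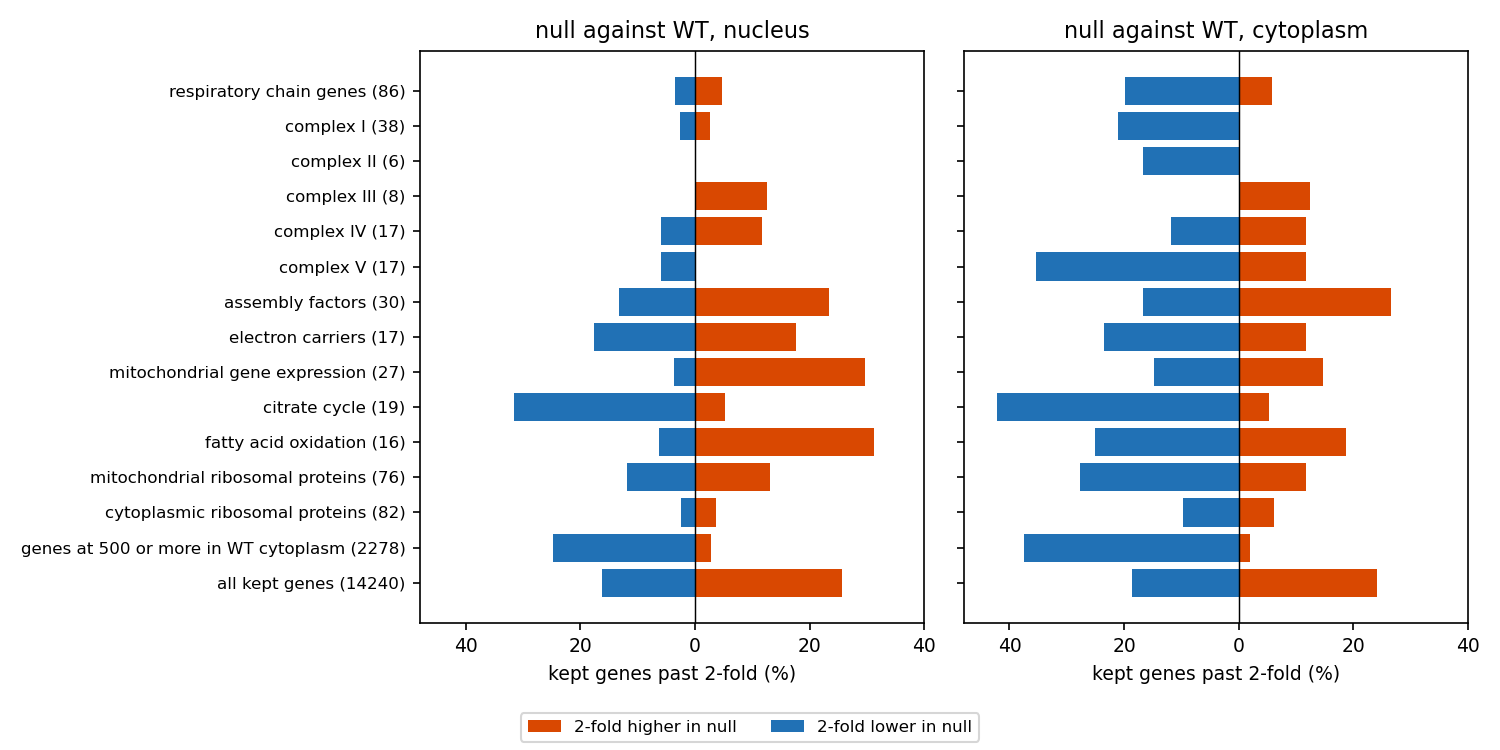
Percent of kept genes at least 2-fold lower (blue, left of 0) or higher (orange, right of 0) in null than in WT, relative to the median gene, in the nucleus and the cytoplasm; the number of kept genes stands in brackets. Past 2-fold either way lie 8.14% (nucleus) and 25.6% (cytoplasm) of the respiratory chain genes, and 42.0% and 42.8% of all kept genes.

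Other large complexes whose subunits are made together were set beside the respiratory chain. Of 82 kept cytoplasmic ribosomal protein genes 3 were higher and 2 lower in the nucleus and 5 higher and 8 lower in the cytoplasm, with medians of -0.05 and -0.32. The 76 mitochondrial ribosomal protein genes had 10 higher and 9 lower in the nucleus and 9 higher and 21 lower in the cytoplasm (medians -0.14 and -0.57). The 37 kept proteasome genes had 5 higher and 6 lower in the nucleus and 3 higher and 13 lower in the cytoplasm (medians -0.57 and -0.60). In the order of these lists, the shares lower in the cytoplasm were 9.76%, 27.6% and 35.1%, against 18.6% of all kept genes. The shares higher there were 6.10%, 11.8% and 8.11%, against 24.2%. In the nucleus 3.66%, 13.2% and 13.5% were higher, against 25.8%, and 2.44%, 11.8% and 16.2% lower, against 16.2%. With 1 column per group the differences between these lists could not be tested.

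Many subunit genes have processed pseudogenes that can take up or lend reads. In GENCODE M21, 50 of the 88 genes share 1 or more stretches of 50 bases with transcripts of another gene, 20 share more than 20% of their transcript and 7 more than 50%. These counts take in other genes of any kind and not only pseudogenes. Sdhaf1 (69.0%) and Uqcrc2 (24.8%), for example, each share sequence with 1 other gene that is not listed as a pseudogene. Of the 25 members past 2-fold between null and WT in either compartment, 5 share more than 20%. Without the 20 genes, 4 members were higher and 3 lower in the nucleus and 4 higher and 13 lower in the cytoplasm. Nearest to the 2-fold line in the nucleus were Cox4i2 (1.07) inside it and Atp5g3 (0.99) outside it among the higher, and Cox8c (-1.11) and Cox7b (-0.99) among the lower. In the cytoplasm they were Cox7a1 (1.18) and Ndufa1 (0.89) among the higher, and Atp5h (-1.02) and Cox7a2l (-0.97) among the lower.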

How the data were processed

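Polyadenylated RNA of mouse oocyte nuclei and cytoplasms was measured with Smart-seq2, per the labels' protocols. TopHat2 (2.1.1), Cufflinks (2.2.1) and build mm9 are listed, without roles, per the submitters' processing notes. The authors deposited 1 table with 4 columns that is FPKM by its name; as the columns differ in scale and the way libraries were combined is not stated there, each deposited value was treated as a score. Genes at 1 or more in at least 2 columns were kept (14240), columns were divided by their median ratio to the geometric mean column (0.279 for the WT nucleus, 0.594, 3.47 and 1.85 for the null nucleus, WT cytoplasm and null cytoplasm), and log2 differences were taken after adding 1. No test was possible with 1 column per group, and reads per library are unknown. The rescaling was tested on columns simulated from the WT cytoplasm column, with little noise and few genes changed, in a single column. Far more genes differ between the real columns, so that the simulation cannot show whether the scaling holds for them. Named genes were the listed main subunits and isoforms, the extreme levels of each complex, the 5 highest and 5 lowest members of each of 5 comparisons and the 2 at each end of each list; the other members past 2-fold, Sdhaf1, Atp5k, Nrf1, the pairs set as ratios, the level of 500 and the length classes were chosen after values were seen. Members and lists were chosen with earlier results of these data known. The values of 1 main subunit are not reported here. Transcripts and coding lengths came from GENCODE M21 (GRCm38), promoters from RefSeq, matched by symbol or RefSeq synonym; no mm9 coordinate is given. Scripts used Python 3.11.15, pandas 2.3.3 and numpy 2.4.6.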

Additional observations from a re-analysis of the deposited data

How the results depend on the processing

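With values as deposited, counts of members higher and lower were 40 and 0 for null against WT in the nucleus (median 0.91, turned from -0.18), 1 and 59 in the cytoplasm (median -1.27), 0 and 86 for nucleus against cytoplasm in WT (median -4.00), 0 and 80 in null (median -1.72) and 80 and 0 for the change of the nucleus minus cytoplasm difference (median 2.30). Of 127 values of single genes 47 had the other sign as deposited; those past 2-fold before were Cox4nb (-0.45) and Ndufv1 (-0.60) for nucleus against cytoplasm in null, and Atp5g3 (0.87), Cox7b (0.865), Cox8c (0.20), Ndufb3 (0.87) and Uqcrb (0.33) for the change of that difference. Under quantile normalization 9 members were lower in the null cytoplasm, in place of 17, and the median was -0.071 in the nucleus, -0.053 in the cytoplasm, -0.26 for nucleus against cytoplasm in null and 0.13 for the change. Under quantile normalization 15 values of single genes lost their call, 2 gained one (Atp5g3 1.22 and Atp5s -1.055 in the nucleus) and 9 had the other sign; with 5 added 6 lost it. The other counts stayed within 1.5 times under quantile normalization, an added 0.1 or 5, no filter and a filter on the WT columns, and also, as settings chosen after seeing the data, with subunits only and without the 20 genes that share sequence. No library could be left out, since the columns hold no single library. No paired analysis was possible because the columns carry no replicate number. Precision is limited by an unknown depth and by the low WT level of isoforms such as Ndufa4l2.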
